A study of Mus musculus with 15 samples.

Results

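The 10 genes described here encode the Toll-like receptors Tlr2, Tlr3, Tlr4, Tlr5, Tlr7 and Tlr9, the related receptor Cd180 (also called RP105), the partner proteins MD-1 (Ly86) and MD-2 (Ly96), and the co-receptor Cd14. They were taken by name from the 55421 genes of a table of raw counts from mouse lung, and all 10 were among the 19562 genes that passed the filter on low counts. The question put to them was how Cd180 with Ly86, a receptor complex of B cells, compares with the Tlr4, Ly96 and Cd14 complex, which senses bacterial lipopolysaccharide and takes part in the sensing of house dust mite allergen. Lung RNA of 15 female wild-type C57BL/6 mice was sequenced, with 5 mice in each of 3 groups. All 3 groups, the comparison group included, received 10 µg of house dust mite (HDM) extract intranasally on 5 days per week, and lungs were taken on day 15. The MSC day 13 group also received adipose tissue-derived mesenchymal stem cells (MSCs) intranasally on day 13 and the MSC day 6 group on day 6, while the HDM group received no cells. Saline-treated mice were not analysed here, so no value below says how mite extract itself changed a gene.

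Toll-like receptors are membrane proteins that recognise conserved parts of microbes and signal through adaptors such as MyD88 and TRIF to the transcription factors NF-kB and IRF. Tlr2, Tlr4 and Tlr5 act at the cell surface, on lipoproteins, lipopolysaccharide and flagellin, while Tlr3, Tlr7 and Tlr9 act in endosomes, on double-stranded RNA, single-stranded RNA and DNA rich in CpG. Tlr4 needs the secreted protein MD-2 to bind lipopolysaccharide, which Cd14 hands over to it, and the mite allergen Der p 2 is a structural relative of MD-2. Cd180 has no signalling domain of the Toll type, is carried to the surface by MD-1, and is found mainly on B cells, with lower amounts on macrophages and dendritic cells. In mouse, Tlr7 and Tlr9 are used by B cells and plasmacytoid dendritic cells, but not by these alone. Cells that use Tlr4 and Tlr2 include macrophages, lung epithelium and endothelium.

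Cd180 (ENSMUSG00000021624) lies at chr13:102693558-102739629 on the plus strand of GRCm38, Ly86 (ENSMUSG00000021423) at chr13:37345208-37419036 on the plus strand, and Tlr9 (ENSMUSG00000045322) at chr9:106222598-106226883 on the plus strand. Tlr7 (ENSMUSG00000044583) lies at chrX:167304929-167330558 on the minus strand, Tlr3 (ENSMUSG00000031639) at chr8:45395665-45411080 on the minus strand and Tlr4 (ENSMUSG00000039005) at chr4:66827584-66930284 on the plus strand. The promoters of Cd180, Ly86 and Tlr9 are shown because these genes were called lower in MSC day 13 libraries and are used by B cells. The Tlr9 promoter was chosen after its motifs were seen. Each is 300 bases of RefSeq sequence on GRCm38.p6, from 250 bases before to 50 after the transcription start, 5′ to 3′ on the plus strand, with motif matches in capitals. The windows are chr13:102693297-102693596 for Cd180, chr13:37345095-37345394 for Ly86 and chr9:106222348-106222647 for Tlr9.
Cd180: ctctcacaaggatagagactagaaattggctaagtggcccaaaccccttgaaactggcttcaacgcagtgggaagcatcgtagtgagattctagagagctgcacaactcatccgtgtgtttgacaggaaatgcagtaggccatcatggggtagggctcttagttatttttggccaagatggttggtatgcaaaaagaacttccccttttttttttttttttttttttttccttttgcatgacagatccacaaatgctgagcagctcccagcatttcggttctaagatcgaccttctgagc
Ly86: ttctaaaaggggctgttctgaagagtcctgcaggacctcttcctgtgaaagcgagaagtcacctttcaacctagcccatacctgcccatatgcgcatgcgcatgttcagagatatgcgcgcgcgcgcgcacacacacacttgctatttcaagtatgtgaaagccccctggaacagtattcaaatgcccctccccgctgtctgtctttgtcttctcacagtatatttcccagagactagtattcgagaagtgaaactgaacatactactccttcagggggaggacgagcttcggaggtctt
Tlr9: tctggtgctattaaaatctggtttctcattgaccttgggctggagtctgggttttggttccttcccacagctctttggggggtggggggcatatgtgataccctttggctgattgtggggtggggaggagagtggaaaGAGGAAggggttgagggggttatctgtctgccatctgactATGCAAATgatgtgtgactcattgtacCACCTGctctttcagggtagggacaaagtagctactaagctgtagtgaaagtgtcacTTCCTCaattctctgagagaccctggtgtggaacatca
Both strands were searched for 5 motifs, namely GAGGAA (the core bound by PU.1), ATTTGCAT (the octamer bound by Oct-2, a B-cell factor), CAGGTG (bound by E2A), TATAAA and GGGACTTTC (bound by NF-kB). The Tlr9 window held the octamer on the minus strand from position -72, the E2A motif on the minus strand from position -45, and the PU.1 core at positions -112 and 13. The Cd180 and Ly86 windows held none of the 5. Of the windows not shown, that of Tlr2 held the E2A motif on the minus strand from position -178, and those of Tlr3 and Tlr5 held none. Of 32851 RefSeq promoters of this length, 28.3% held GAGGAA, 1.74% ATTTGCAT, 20.2% CAGGTG, 13.6% TATAAA and 0.353% GGGACTTTC. Of the 10 genes, 6 had a RefSeq promoter entry, and a match describes the letters only.

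The deposited counts summed to 17182599 to 32119067 per library in the MSC day 13 group, 31762964 to 41762167 in the MSC day 6 group and 29635897 to 44201637 in the HDM group, and the 10 genes had 85 to 2185 counts each per library. Levels below are CPM (counts scaled to a common library size, with TMM factors). The lung markers were high in every library, with Sftpc at 3606 to 7004 CPM in MSC day 13 libraries, 6587 to 8807 CPM in MSC day 6 libraries and 5370.3 to 9051 CPM in HDM libraries. MSC day 13 replicate 3 stood apart, with the smallest total but counts in 43174 genes, against 26542 to 29154 genes in the other 14 libraries. Its 8 thymocyte markers summed to 3909 CPM, against 47.1 to 69.0 CPM in the other MSC day 13 libraries, 50.1 to 62.9 CPM in MSC day 6 libraries and 58.1 to 69.8 CPM in HDM libraries. HDM replicates 1 and 2 also stood apart from the other HDM libraries, as the values of Ly96 and Cd14 below show. Results are therefore given with and without these libraries.

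In the lungs given MSCs on day 13, Cd180, Tlr7, Tlr9, Tlr3 and Ly86 were lower than in lungs given HDM alone, and none of the 10 genes was higher. Cd180 had the lowest fold change of the 10, with a mean of 15.9 ± 2.42 CPM in MSC day 13 lungs and 32.1 ± 7.45 CPM in HDM lungs (SD, n = 5 each). Tlr4, Ly96, Cd14, Tlr2 and Tlr5 did not pass the test. In the lungs given MSCs on day 6, Cd180 alone of the 10 genes passed the test when all libraries were used, at 18.1 ± 1.57 CPM (SD, n = 5).

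The 5 genes past the test in the comparison of MSC day 13 with HDM were 5 of the 10 members, all lower, while 2.89% of all 19562 genes tested were called lower. A gene is called at an adjusted p under 0.05 in edgeR's quasi-likelihood test, with Benjamini-Hochberg adjustment over all genes tested. In the comparison of MSC day 6 with HDM, 1 of the 10 members was called lower, against 0.092% of all genes. Both comparisons use the same 5 HDM libraries, so their results are not independent of each other. Without HDM replicates 1 and 2, 2 members (Cd180 and Tlr7) were called lower in MSC day 13, against 0.404% of all genes, and none in MSC day 6, against 0.00998%. In an edgeR fit of only the MSC day 13 and HDM libraries, no member and no other gene was called, with adjusted p from 0.0784 (Cd180 and Tlr7) to 0.113 (Ly86) for the 5 genes and 3494 genes at an unadjusted p under 0.05. The median log2 fold change over the 10 genes was -0.51 in MSC day 13 and -0.28 in MSC day 6, beside 0.027 and 0.012 over all genes tested.

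**Figure D1:**
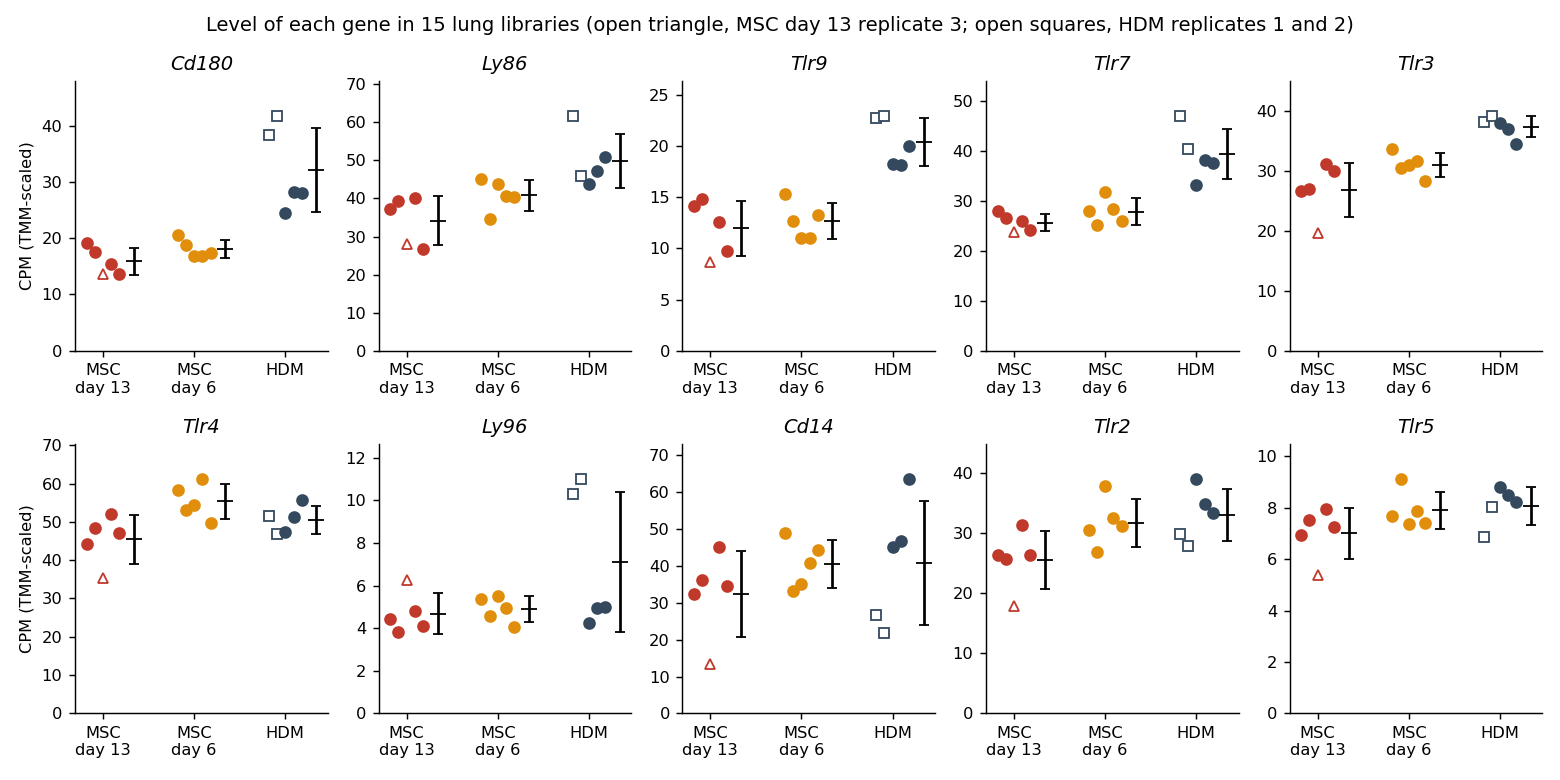
Level of each of the 10 genes in every library, in CPM on a linear axis per panel, with MSC day 13, MSC day 6 and HDM libraries from left to right and bars for the mean ± SD of 5 libraries. The open triangle is MSC day 13 replicate 3 and the open squares are HDM replicates 1 and 2; Cd180, Tlr9, Tlr7 and Tlr3 lie below every HDM library in both MSC groups.

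Cd180, the receptor of B cells that pairs with MD-1, had 19.2, 17.5, 13.7, 15.5 and 13.7 CPM in the 5 MSC day 13 libraries, and 20.5, 18.8, 16.9, 16.9 and 17.3 CPM in the 5 MSC day 6 libraries. In HDM libraries Cd180 had 38.3, 41.7, 24.5, 28.2 and 28.0 CPM. Every library of both MSC groups was below the lowest HDM library, and HDM replicates 1 and 2 were the highest of all. Its log2 fold change was -1.01 in MSC day 13 (SE 0.14, 95% interval -1.32 to -0.70, adjusted p = 0.00549) and -0.83 in MSC day 6 (SE 0.14, 95% interval -1.14 to -0.53, adjusted p = 0.0382). Without HDM replicates 1 and 2 the log2 fold change was -0.74 in MSC day 13 (adjusted p = 0.0308) and -0.57 in MSC day 6 (adjusted p = 0.208, no longer past the test). The MSC day 13 call held with any single library left out, at adjusted p from 0.00245 to 0.0238. The MSC day 6 call held only without HDM replicate 3, MSC day 13 replicate 3 or MSC day 13 replicate 5, and was lost without any one of the other 12 libraries (adjusted p up to 0.178), although the log2 fold change stayed between -0.91 and -0.72. In bulk tissue, fewer cells of a type and less RNA of the gene per cell cannot be told apart. Markers of B cells moved with Cd180, as given further below.

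Cd180 shares 182 exon bases with Mast4, a kinase gene on the opposite strand, and whether the authors' counting used strand is not stated. Mast4 averaged 113 ± 9.02 CPM in MSC day 13 libraries, 109 ± 4.62 CPM in MSC day 6 libraries and 123 ± 15.3 CPM in HDM libraries (SD, n = 5 each). Its log2 fold changes of -0.13 in MSC day 13 (adjusted p = 0.398) and -0.17 in MSC day 6 (adjusted p = 0.385) did not pass the test.

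Ly86, which encodes the secreted protein MD-1 that carries Cd180 to the cell surface, had 37.1, 39.2, 27.9, 40.0 and 26.8 CPM in MSC day 13 libraries, and 45.0, 34.5, 43.8, 40.6 and 40.3 CPM in MSC day 6 libraries. In HDM libraries Ly86 had 61.6, 46.0, 43.8, 47.1 and 51.0 CPM. All MSC day 13 libraries were below the lowest HDM library, while MSC day 6 and HDM libraries overlapped. Its log2 fold change was -0.54 in MSC day 13 (SE 0.13, 95% interval -0.81 to -0.27, adjusted p = 0.0285) and -0.29 in MSC day 6 (adjusted p = 0.325, not past the test). The MSC day 13 call was lost without HDM replicate 1, 2, 4 or 5 or without MSC day 13 replicate 5 (adjusted p up to 0.0803), and without HDM replicates 1 and 2 together (log2 fold change -0.45, adjusted p = 0.0810).

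Among the endosomal receptors, Tlr9, which recognises CpG DNA, had 14.1, 14.8, 8.66, 12.6 and 9.70 CPM in MSC day 13 libraries, and 15.3, 12.7, 11.0, 11.0 and 13.3 CPM in MSC day 6 libraries. In HDM libraries Tlr9 had 22.7, 22.9, 18.2, 18.1 and 20.0 CPM. Neither MSC group overlapped with HDM, and MSC day 13 replicate 3 was the lowest library. Its log2 fold change was -0.76 in MSC day 13 (SE 0.15, 95% interval -1.08 to -0.45, adjusted p = 0.0159) and -0.69 in MSC day 6 (adjusted p = 0.0769, not past the test). The MSC day 13 call was lost without MSC day 13 replicate 5 (adjusted p = 0.0512) or without HDM replicates 1 and 2 together (adjusted p = 0.0651).

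Tlr7, the receptor for single-stranded RNA, had 28.0, 26.5, 23.8, 25.9 and 24.1 CPM in MSC day 13 libraries, and 28.1, 25.1, 31.9, 28.4 and 25.9 CPM in MSC day 6 libraries. In HDM libraries Tlr7 had 47.0, 40.5, 33.3, 38.3 and 37.7 CPM. Both MSC groups lay below every HDM library. Its log2 fold change was -0.62 in MSC day 13 (SE 0.096, 95% interval -0.82 to -0.41, adjusted p = 0.00904) and -0.50 in MSC day 6 (adjusted p = 0.0597, not past the test). As for Cd180, the MSC day 13 call held with any single library left out (adjusted p from 0.00382 to 0.0277) and without HDM replicates 1 and 2 together (log2 fold change -0.49, adjusted p = 0.0376).

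Tlr3, the receptor for double-stranded RNA, had 26.7, 27.1, 19.6, 31.2 and 30.0 CPM in MSC day 13 libraries, and 33.7, 30.5, 31.1, 31.7 and 28.3 CPM in MSC day 6 libraries. In HDM libraries Tlr3 had 38.3, 39.2, 38.0, 37.0 and 34.6 CPM. Its HDM libraries were close together and above every MSC library. The log2 fold change was -0.47 in MSC day 13 (SE 0.10, 95% interval -0.69 to -0.25, adjusted p = 0.0226) and -0.27 in MSC day 6 (adjusted p = 0.262, not past the test). The MSC day 13 call was lost without HDM replicate 2 or MSC day 13 replicate 2 (adjusted p up to 0.0575) and without HDM replicates 1 and 2 together (adjusted p = 0.0746). In MSC day 13 lungs, 5 of the 10 genes (Cd180, Ly86, Tlr9, Tlr7 and Tlr3) had all libraries below every HDM library, beside 3.73% of all genes tested. In MSC day 6 lungs 4 of them (all but Ly86) did, beside 3.45% of all genes.

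The complex of Tlr4, Ly96 and Cd14 gave no call in any of the 3 comparisons. Tlr4, the signalling receptor for lipopolysaccharide, had 44.1, 48.4, 35.3, 52.0 and 47.2 CPM in MSC day 13 libraries, and 58.4, 53.2, 54.4, 61.2 and 49.6 CPM in MSC day 6 libraries. In HDM libraries Tlr4 had 51.4, 46.9, 47.3, 51.3 and 55.8 CPM. All 3 groups overlapped, and MSC day 13 replicate 3 was the lowest library. The log2 fold change of Tlr4 was -0.15 in MSC day 13 (95% interval -0.36 to 0.051, adjusted p = 0.355) and 0.13 in MSC day 6 (95% interval -0.074 to 0.33, adjusted p = 0.590). Both intervals lie above the log2 fold changes of Cd180 in the same comparisons.

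Ly96, which encodes the lipopolysaccharide-binding protein MD-2, had 4.41, 3.83, 6.26, 4.82 and 4.11 CPM in MSC day 13 libraries, and 5.38, 4.59, 5.53, 4.95 and 4.06 CPM in MSC day 6 libraries. In HDM libraries Ly96 had 10.3, 11.0, 4.23, 4.95 and 5.01 CPM. HDM replicates 1 and 2 were above all other libraries, and the other 3 HDM libraries lay within the range of the MSC libraries. The log2 fold change was -0.61 in MSC day 13 (95% interval -1.14 to -0.08, adjusted p = 0.152) and -0.54 in MSC day 6 (adjusted p = 0.345), and without HDM replicates 1 and 2 it was -0.0095 in MSC day 13 and 0.052 in MSC day 6.

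Cd14, which binds lipopolysaccharide and passes it to Tlr4 and MD-2, had 32.4, 36.2, 13.5, 45.2 and 34.6 CPM in MSC day 13 libraries, and 48.8, 33.1, 35.0, 40.9 and 44.4 CPM in MSC day 6 libraries. In HDM libraries Cd14 had 26.8, 21.9, 45.1, 46.7 and 63.6 CPM. HDM replicates 1 and 2, the highest in Ly96, were the lowest HDM libraries in Cd14, and MSC day 13 replicate 3 was the lowest of all libraries. Cd14 thus spread over 21.9 to 63.6 CPM within the HDM group alone, and its log2 fold changes of -0.33 in MSC day 13 (95% interval -0.95 to 0.29, adjusted p = 0.530) and -0.013 in MSC day 6 (adjusted p = 0.991) did not pass the test. In MSC day 13 its log2 fold change was -0.66 without HDM replicates 1 and 2 (adjusted p = 0.160), -0.12 without MSC day 13 replicate 3 (adjusted p = 0.804) and -0.10 without HDM replicate 5 (adjusted p = 0.873). With MSC day 13 replicate 3 and HDM replicates 1 and 2 all left out, a setting chosen after seeing the data, it was -0.49 (adjusted p = 0.0623). In that fit Ly86 had -0.41 (adjusted p = 0.0448), so Cd14 fell by no less than Ly86, although only Ly86 was called. The within-library ratio of Ly96 to Cd14 was 0.463 in MSC day 13 replicate 3 and 0.384 and 0.503 in HDM replicates 1 and 2, against 0.0787 to 0.158 in the other 12 libraries.

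The surface receptors for lipoproteins and flagellin also gave no call. Tlr2 ranged from 17.9 to 31.3 CPM in MSC day 13 libraries, 26.8 to 37.8 CPM in MSC day 6 libraries and 27.8 to 39.0 CPM in HDM libraries, with log2 fold changes of -0.37 (adjusted p = 0.111) in MSC day 13 and -0.054 (adjusted p = 0.903) in MSC day 6. Without MSC day 13 replicate 3 and HDM replicates 1 and 2 together, a setting chosen after seeing the data, Tlr2 was called lower in MSC day 13 (log2 fold change -0.39, adjusted p = 0.0323), as were the 5 genes above, against 6.68% of all genes. In that setting Cd180, Tlr7 and Tlr9 were called lower in MSC day 6, against 2.05% of all genes. Tlr5 ranged from 5.37 to 7.96 CPM in MSC day 13 libraries, 7.38 to 9.12 CPM in MSC day 6 libraries and 6.86 to 8.80 CPM in HDM libraries, with log2 fold changes of -0.20 (adjusted p = 0.313) in MSC day 13 and -0.033 (adjusted p = 0.934) in MSC day 6.

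**Figure D2:**
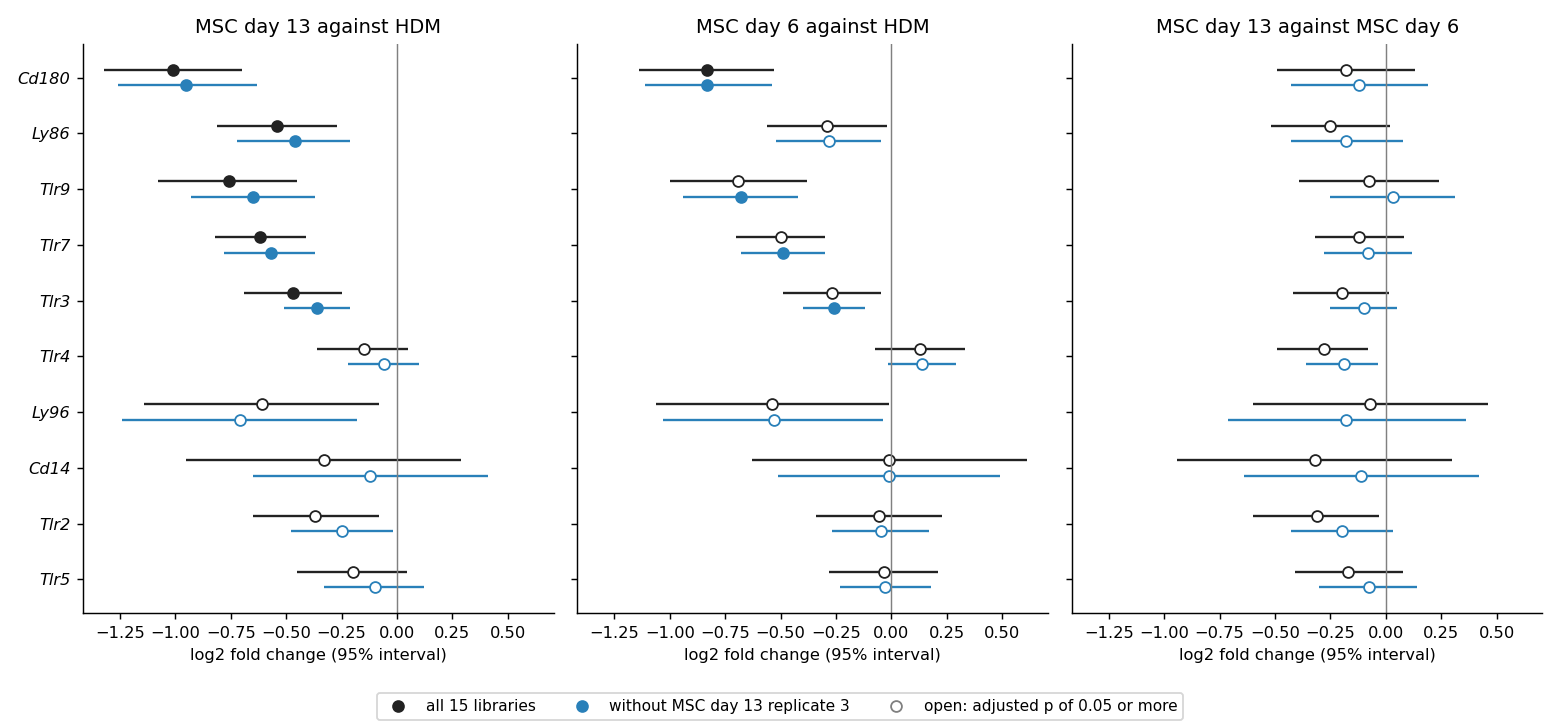
Log2 fold change of each of the 10 genes with its 95% interval in MSC day 13 against HDM, MSC day 6 against HDM and MSC day 13 against MSC day 6, in black for all 15 libraries and in blue without MSC day 13 replicate 3, with filled points at an adjusted p under 0.05. In MSC day 13 against HDM, 5 genes are filled with and without that library, and in MSC day 6 against HDM 1 gene is filled with it and 4 without it.

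MSC day 13 replicate 3 had the lowest level of its group in 7 of the 10 genes, shared the lowest in Cd180 and was the highest in Ly96. Without it, Cd180 (log2 fold change -0.95, adjusted p = 0.00519), Tlr7 (-0.57, 0.00579), Tlr9 (-0.65, 0.0139), Tlr3 (-0.36, 0.0115) and Ly86 (-0.46, 0.0349) were all still called lower in MSC day 13, against 3.36% of the 19657 genes tested. The same omission changed the calls in MSC day 6, from which no library was removed. All 3 groups share a single fit, and which part of it (filter, scaling, spread or adjustment) made the change was not tested. Cd180 (log2 fold change -0.83, adjusted p = 0.0164), Tlr7 (-0.49, 0.0213), Tlr9 (-0.68, 0.0213) and Tlr3 (-0.26, 0.0495) were then called lower in MSC day 6, against 1.72% of all genes. Ly86 was not called in MSC day 6 in that fit (log2 fold change -0.28, adjusted p = 0.174).

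Between the MSC groups, no member and none of the 19562 genes (0%) passed edgeR's test, although 1514 genes were under 0.05 before adjustment. By DESeq2 the number called was 2, and by limma voom 1, none of them a member. Tlr4 was at 45.4 ± 6.35 CPM in MSC day 13 lungs and 55.3 ± 4.51 CPM in MSC day 6 lungs (SD, n = 5 each), with a log2 difference of -0.28 (95% interval -0.49 to -0.079, adjusted p = 0.623 by edgeR's quasi-likelihood test). The log2 difference of MSC day 13 minus MSC day 6 was -0.18 for Cd180 (95% interval -0.49 to 0.13), -0.25 for Ly86 (-0.52 to 0.017), -0.075 for Tlr9 (-0.39 to 0.24), -0.12 for Tlr7 (-0.32 to 0.083) and -0.20 for Tlr3 (-0.42 to 0.014). No difference between the days of delivery was shown for these genes, including those called in 1 of the MSC groups, and the intervals do not show that the groups were alike.

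Ratios within a library do not depend on the scaling of library sizes. The ratio of Cd180 to Tlr4 CPM was 0.436, 0.362, 0.389, 0.298 and 0.290 in MSC day 13 libraries, 0.352, 0.353, 0.310, 0.276 and 0.349 in MSC day 6 libraries, and 0.746, 0.889, 0.517, 0.549 and 0.502 in HDM libraries. No MSC library reached the lowest HDM library, MSC day 13 replicate 3 lay inside its group, and the 2 MSC groups overlapped. Ly86 to Tlr4 was likewise lower in all MSC libraries, at 0.569 to 0.842 in MSC day 13 and 0.649 to 0.812 in MSC day 6, against 0.915 to 1.20 in HDM. In MSC day 6, however, Ly86 itself overlapped with HDM, and Tlr4 averaged 55.3 ± 4.51 CPM against 50.6 ± 3.60 CPM in HDM (SD, n = 5 each). Tlr9 to Tlr4 was 0.206 to 0.320 in MSC day 13 and 0.179 to 0.268 in MSC day 6, against 0.352 to 0.489 in HDM, and Tlr7 to Tlr4 reached 0.676 in MSC day 13, where it met the lowest HDM value.

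The ratio of the whole complexes was less separated. The geometric mean of Cd180 and Ly86 over that of Tlr4, Ly96 and Cd14 was 1.02 to 1.45 in MSC day 13 libraries, 1.13 to 1.27 in MSC day 6 libraries and 1.45 to 2.01 in HDM libraries. MSC day 13 replicate 1 thus reached the lowest HDM value, while MSC day 6 stayed below it. With Ly96 left out, the ratio was 0.474 to 0.895 in MSC day 13 and 0.524 to 0.623 in MSC day 6. In HDM it was then 0.635 to 1.37, and MSC day 13 replicates 1 and 3 lay inside that range. Ly86 to Ly96 was 4.45 to 10.2 in MSC day 13, 7.53 to 9.93 in MSC day 6 and 4.17 to 10.4 in HDM. This ratio of the partner proteins' genes overlapped between all groups. Cd180 to Ly86, the receptor over its partner, was 0.387 to 0.518 in MSC day 13 and 0.385 to 0.543 in MSC day 6, just below the range of 0.548 to 0.907 in HDM. No test was run on these ratios, since the pairs were chosen with results known.

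**Figure D3:**
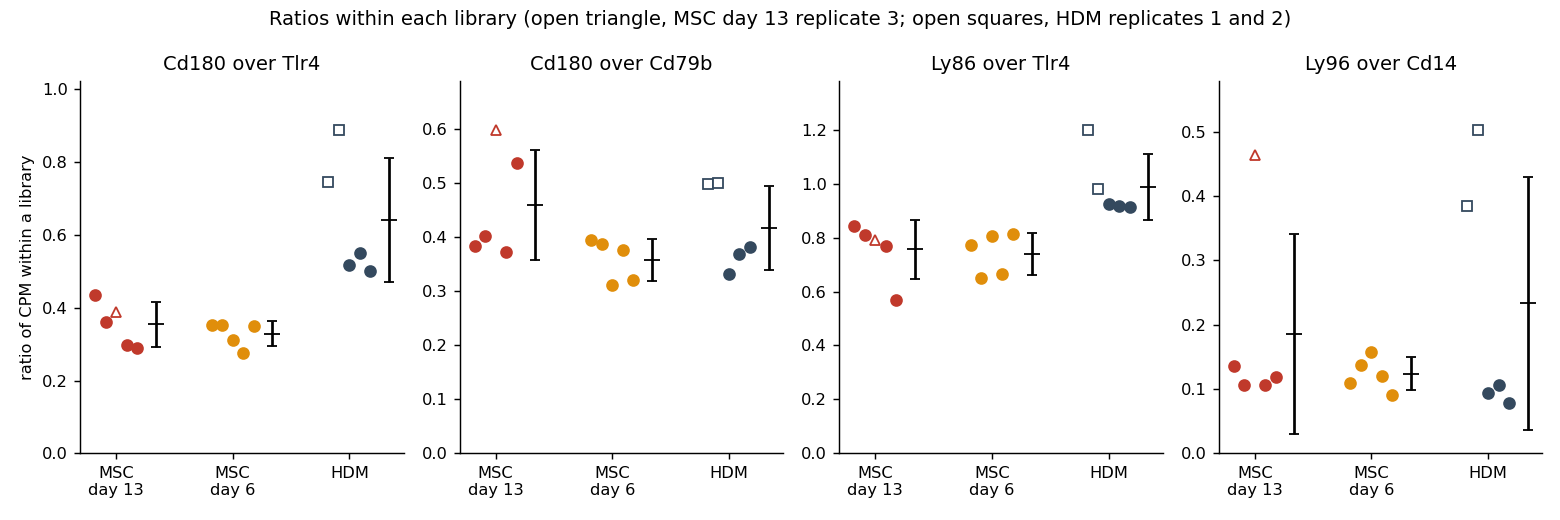
Within-library ratios of CPM for pairs of the genes and for Cd180 over the B-cell gene Cd79b, per library, with MSC day 13, MSC day 6 and HDM from left to right bars for the mean ± SD of 5 libraries and the same open symbols as in the plot of levels. Cd180 over Tlr4 is at most 0.436 in MSC libraries and at least 0.502 in HDM libraries, whereas Cd180 over Cd79b overlaps between all 3 groups.

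Markers of B cells were lower together with Cd180. In MSC day 13 against HDM, 9 of the 12 B-cell markers were called lower, against 2.89% of all genes. The list median log2 fold change was -0.96. In MSC day 6 against HDM, 1 of the 12 was called lower (median -0.65), against 0.092% of all genes. Without MSC day 13 replicate 3, 7 of the 12 were called in MSC day 6, against 1.72% of all genes. Without HDM replicates 1 and 2, 2 of the 12 were called in MSC day 13 (median -0.77), against 0.404% of all genes. In that setting none of the 12 was called in MSC day 6 (median -0.53), against 0.00998% of all genes. The summed level of 12 B-cell markers was 235 to 465 CPM in MSC day 13 libraries and 366 to 474 CPM in MSC day 6 libraries, against 524 to 787 CPM in HDM libraries, and none of the 12 was at 0 in any library. Cd79b, a chain of the B-cell receptor, had 50.0, 43.4, 22.9, 41.5 and 25.5 CPM in MSC day 13 libraries, and 52.1, 48.4, 54.0, 45.0 and 53.9 CPM in MSC day 6 libraries. In HDM libraries Cd79b had 76.9, 83.5, 73.7, 76.4 and 73.2 CPM. Both MSC groups were below HDM, and MSC day 13 replicates 3 and 5 were lowest. Set against this marker, Cd180 was not separated by group: Cd180 over Cd79b was 0.373 to 0.599 in MSC day 13, 0.312 to 0.394 in MSC day 6 and 0.332 to 0.500 in HDM. Cd180 over Ms4a1, which encodes CD20, was 0.431 to 0.677 in MSC day 13, 0.407 to 0.594 in MSC day 6 and 0.485 to 0.558 in HDM. Tlr9 over Cd79b was 0.282 to 0.381 in MSC day 13, 0.204 to 0.293 in MSC day 6 and 0.236 to 0.296 in HDM, again with overlap. Ly86 over Cd79b was 0.743 to 1.22 in MSC day 13, 0.714 to 0.903 in MSC day 6 and 0.551 to 0.801 in HDM, also with overlap. Its group means went the other way, at 0.976 ± 0.177, 0.808 ± 0.0783 and 0.652 ± 0.0991 (SD, n = 5 each). On average, Ly86 was thus lower by a smaller factor than Cd79b.

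Other cell types that carry these receptors were measured in the same way. The 12 markers of monocytes and interstitial macrophages summed to 571 to 1150.1 CPM in MSC day 13 libraries, with replicate 3 lowest, 966 to 1337 CPM in MSC day 6 libraries and 1031 to 1525 CPM in HDM libraries, with overlap between all groups. All 12 had a log2 fold change below 0 in MSC day 13 against HDM (median -0.47), and 4 of them were called lower, against 2.89% of all genes. Among these were Ly6c2 (-0.91, adjusted p = 0.0118), Ms4a7 (-0.86, 0.0131) and Cd68 (-0.80, 0.0359). Without MSC day 13 replicate 3 the number called was 3, against 3.36% of all genes. Without HDM replicates 1 and 2 it was 1, against 0.404% of all genes. None was called in MSC day 6, against 0.092% of all genes called lower. Ratios to Csf1r, a marker in this list, overlapped between all groups. Ly86 over Csf1r was 0.144 to 0.275 in MSC day 13, 0.162 to 0.190 in MSC day 6 and 0.170 to 0.294 in HDM. Tlr7 over Csf1r was 0.112 to 0.235 in MSC day 13, 0.104 to 0.138 in MSC day 6 and 0.125 to 0.224 in HDM. Replicate 3 was the highest MSC day 13 library in both ratios. Of 9 tested neutrophil markers, 3 were called lower in MSC day 13 (Retnlg, Mmp8 and Mmp9) and none in MSC day 6. Over all genes, 2.89% were called lower in MSC day 13 and 0.092% in MSC day 6. Without HDM replicates 1 and 2 no neutrophil marker was called in MSC day 13, against 0.404% of all genes called lower. Of the 9, 7 had a log2 fold change below 0 in MSC day 13 (median -0.46). Ngp averaged 2.10 ± 0.780 CPM in MSC day 13 and 1.94 ± 0.834 CPM in HDM (SD, n = 5 each). Camp averaged 0.484 ± 0.305 CPM and 0.417 ± 0.190 CPM in these groups. The 10 neutrophil markers summed to 57.9 to 135 CPM in MSC day 13, 112 to 153 CPM in MSC day 6 and 128 to 183 CPM in HDM. The 6 markers of plasmacytoid dendritic cells, which carry Tlr7 and Tlr9, summed to 315 to 565 CPM in MSC day 13 (315 to 325 CPM without replicate 3, in which Ccr9 alone was at 303 CPM), 310.5 to 347 CPM in MSC day 6 and 315 to 375 CPM in HDM, and Siglech, which defines these cells in mouse, was at 3.86 to 6.51, 4.17 to 6.18 and 4.13 to 7.50 CPM in the same groups. Of the lists named here the B-cell list alone had both MSC groups below every HDM library. The part of B-cell, monocyte, macrophage and neutrophil number in the change of Cd180, Tlr9, Tlr7 and Ly86 was not tested.

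Over the 14 libraries other than MSC day 13 replicate 3, likeness to a gene was measured as the SD of the log2 ratio to it among 16299 genes of at least 1 CPM, a description of libraries that share group and depth. The genes closest to Cd180 were Pou2f2 (SD 0.15), which encodes Oct-2, Pla2g1b (0.17), which encodes a secreted phospholipase, Tlr9 (0.17) and Ighd (0.17), the heavy chain of IgD on naive B cells. Tlr9, a member, was thus the third closest of all genes. Pou2f2 had 18.1, 16.1, 12.2, 13.7 and 11.5 CPM in MSC day 13 libraries, and 11.8 to 16.4 CPM in MSC day 6 libraries. In HDM libraries Pou2f2 had 28.2, 33.9, 21.6, 22.8 and 23.3 CPM, with HDM replicates 1 and 2 highest as for Cd180. Tlr7 ranked 71 (SD 0.24) in likeness to Cd180, its partner Ly86 ranked 589 (0.33) and Tlr4 ranked 7309 (0.52). The SD of the log2 level itself over these libraries was 0.487 for Cd180, 0.277 for Ly86 and 0.132 for Tlr4, and the measure depends on it.

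The gene closest to Ly86 was Casp1 (SD 0.092), the inflammasome protease, followed by Plek (0.12), Tmem154 (0.12) and Tmsb10 (0.12), which encodes an actin-binding thymosin, while Tlr7 ranked 86 (0.16). Tlr4 was closest to Ext1 (0.082), an enzyme of heparan sulphate synthesis, Ccz1 (0.082), Socs6 (0.083) and Atp5f1 (0.084), a subunit of ATP synthase, which like Tlr4 varied little, with SDs of 0.115 to 0.143 for their own log2 levels.

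The genes were also ordered by their level per length of exon. In MSC day 13 libraries, Cd14 was highest at 18.7 ± 6.71 CPM per kb, followed by Ly86 at 9.42 ± 1.75, Tlr2 at 8.46 ± 1.60, Tlr4 at 8.17 ± 1.14, Tlr7 at 6.29 ± 0.428, Tlr3 at 5.17 ± 0.868, Ly96 at 4.59 ± 0.932, Cd180 at 3.53 ± 0.536, Tlr9 at 3.44 ± 0.778 and Tlr5 at 1.46 ± 0.207 CPM per kb (SD, n = 5). Neighbours in this order overlapped, except Tlr9 with Tlr5. MSC day 6 libraries had the same order, from Cd14 at 23.4 ± 3.75 to Tlr5 at 1.65 ± 0.149 CPM per kb, and there Cd14 with Ly86, Tlr4 with Tlr7, Tlr3 with Ly96 and Tlr9 with Tlr5 did not overlap. In HDM libraries, Tlr7 (9.64 ± 1.22 CPM per kb) came before Tlr4 (9.10 ± 0.648) and Cd180 (7.13 ± 1.65) before Ly96 (6.96 ± 3.21), both pairs with overlap, and Cd14 at 23.6 ± 9.69 and Tlr5 at 1.69 ± 0.155 CPM per kb were again highest and lowest. Without HDM replicates 1 and 2, Tlr4 (9.27 ± 0.758 CPM per kb) came before Tlr7 (8.93 ± 0.660) in HDM libraries as in the MSC groups, and Cd180 (5.96 ± 0.461) still before Ly96 (4.63 ± 0.428) (SD, n = 3). Tlr9 (5.39 ± 0.302 CPM per kb) then lay between Cd180 and Ly96, whereas it followed both in each full group.

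Around these receptors, 93 genes in 8 lists of the pathway were tested. In MSC day 13 against HDM, 12 of the 93 were called lower and none higher, against 2.89% called lower and 1.9% called higher of all genes. In MSC day 6 against HDM and between the MSC groups none of the 93 was called. Without HDM replicates 1 and 2 none of the 93 was called in MSC day 13 either, while 0.404% of all genes were called lower. Of the 12 calls, 11 were lost without HDM replicate 2 alone and that of Cd22 without MSC day 13 replicate 5 alone (adjusted p = 0.0502).

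Of the 6 other Toll-like receptors, only Tlr13, a receptor for bacterial ribosomal RNA in mouse, passed, with a log2 fold change of -0.57 in MSC day 13 (adjusted p = 0.0274) and -0.32 in MSC day 6 (adjusted p = 0.289). It had 37.7, 30.2, 23.1, 28.8 and 23.7 CPM in MSC day 13 libraries and 39.9, 44.7, 35.0, 47.3 and 46.6 CPM in HDM libraries, with 1 MSC day 13 library inside the HDM range. Of 12 chaperones and ligand carriers, 3 were lower in MSC day 13, namely Lbp, which delivers lipopolysaccharide to Cd14 (log2 fold change -0.55, adjusted p = 0.0304), Cd36, a partner of Tlr2 (-0.50, 0.0293), and Ctsb, a protease of endosomes (-0.82, 0.0436), with a list median of -0.51. Lbp had 60.6, 60.2, 34.6, 65.4 and 59.8 CPM in MSC day 13 libraries and 73.3, 73.6, 88.5, 91.4 and 84.3 CPM in HDM libraries, without overlap.

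Of the shared signalling parts, none of 20 adaptors and proximal kinases passed (list median -0.13 in MSC day 13), and Ticam2, the adaptor that links Tlr4 to TRIF, had the smallest p (log2 fold change -0.48, adjusted p = 0.0514). Without MSC day 13 replicate 3, Ticam2 (-0.49, adjusted p = 0.0478) and Tab2, a partner of the kinase TAK1 (-0.58, 0.0191), were called lower in MSC day 13, and Ikbkg, the regulatory subunit of the IkB kinase, was called higher (0.22, 0.0423). In that fit Tab2 (-0.56, 0.0336) and Traf6, a ubiquitin ligase of the pathway (-0.28, 0.0378), were called lower and Ikbkg higher (0.24, 0.0486) in MSC day 6. None of 11 transcription factors passed (median -0.12), with Rel, an NF-kB subunit abundant in lymphocytes, nearest (-0.42, adjusted p = 0.0531), and the median was 0.046 without MSC day 13 replicate 3. In MSC day 6, Rel was called lower without that library (-0.49, adjusted p = 0.0427). Of 12 negative regulators Irak3, a kinase-like brake on MyD88 signalling, was lower (-0.52, adjusted p = 0.0438, list median -0.04), but not without MSC day 13 replicate 3 (-0.44, adjusted p = 0.0599). Of 17 tested cytokine and enzyme targets Lcn2, an iron-binding protein of epithelium and neutrophils, was lower (-0.84, adjusted p = 0.0461), while the list median was 0.09, or -0.083 without HDM replicates 1 and 2.

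Lcn2 had 963, 1198, 467, 1344 and 658 CPM in MSC day 13 libraries, and 1282, 914, 1158, 1136 and 1188 CPM in MSC day 6 libraries. In HDM libraries Lcn2 had 1933, 1727, 1417, 1317 and 1903 CPM. MSC day 6 libraries were all below HDM, and MSC day 13 replicate 4 lay inside the HDM range. Of 7 tested genes outside the family, listed for sensing mite products or signals of the host such as ATP, 3 were lower in MSC day 13. Clec7a, which encodes Dectin-1, a receptor for beta-glucan, had a log2 fold change of -0.76 (adjusted p = 0.0232), F2rl1, the protease-activated receptor cleaved by mite proteases, one of -0.46 (0.0226), and P2rx7, a receptor for extracellular ATP, one of -0.41 (0.0374). Clec7a had 325, 349, 205, 343 and 217 CPM in MSC day 13 libraries and 508, 561, 348, 499 and 523 CPM in HDM libraries, with 1 MSC day 13 library just above the lowest HDM library.

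Of 8 genes of B-cell receptor signalling near Cd180, 3 were lower in MSC day 13. Cd22, an inhibitory lectin of B cells, had 76.7, 57.1, 35.1, 46.1 and 38.7 CPM in MSC day 13 libraries, and 60.8, 61.7, 57.8, 60.5 and 68.9 CPM in MSC day 6 libraries. In HDM libraries Cd22 had 104, 126, 69.0, 97.7 and 102 CPM. MSC day 6 lay just below the lowest HDM library and MSC day 13 replicate 1 above it. The log2 fold change of Cd22 was -0.97 in MSC day 13 (adjusted p = 0.0153) and -0.69 in MSC day 6 (adjusted p = 0.122, not past the test). Blnk, a linker protein, had -0.75 (adjusted p = 0.0393) and Btk, the kinase that relays B-cell receptor and Cd180 signals, -0.52 (adjusted p = 0.0450) in MSC day 13. The list median was -0.43 in MSC day 13 and -0.30 in MSC day 6. Without MSC day 13 replicate 3, Cd22 was called lower in MSC day 13 (-0.85, adjusted p = 0.0160), Blnk (adjusted p = 0.0547) and Btk (0.0559) were not, and Cd22 was called lower in MSC day 6 (-0.68, 0.0451).

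**Figure D4:**
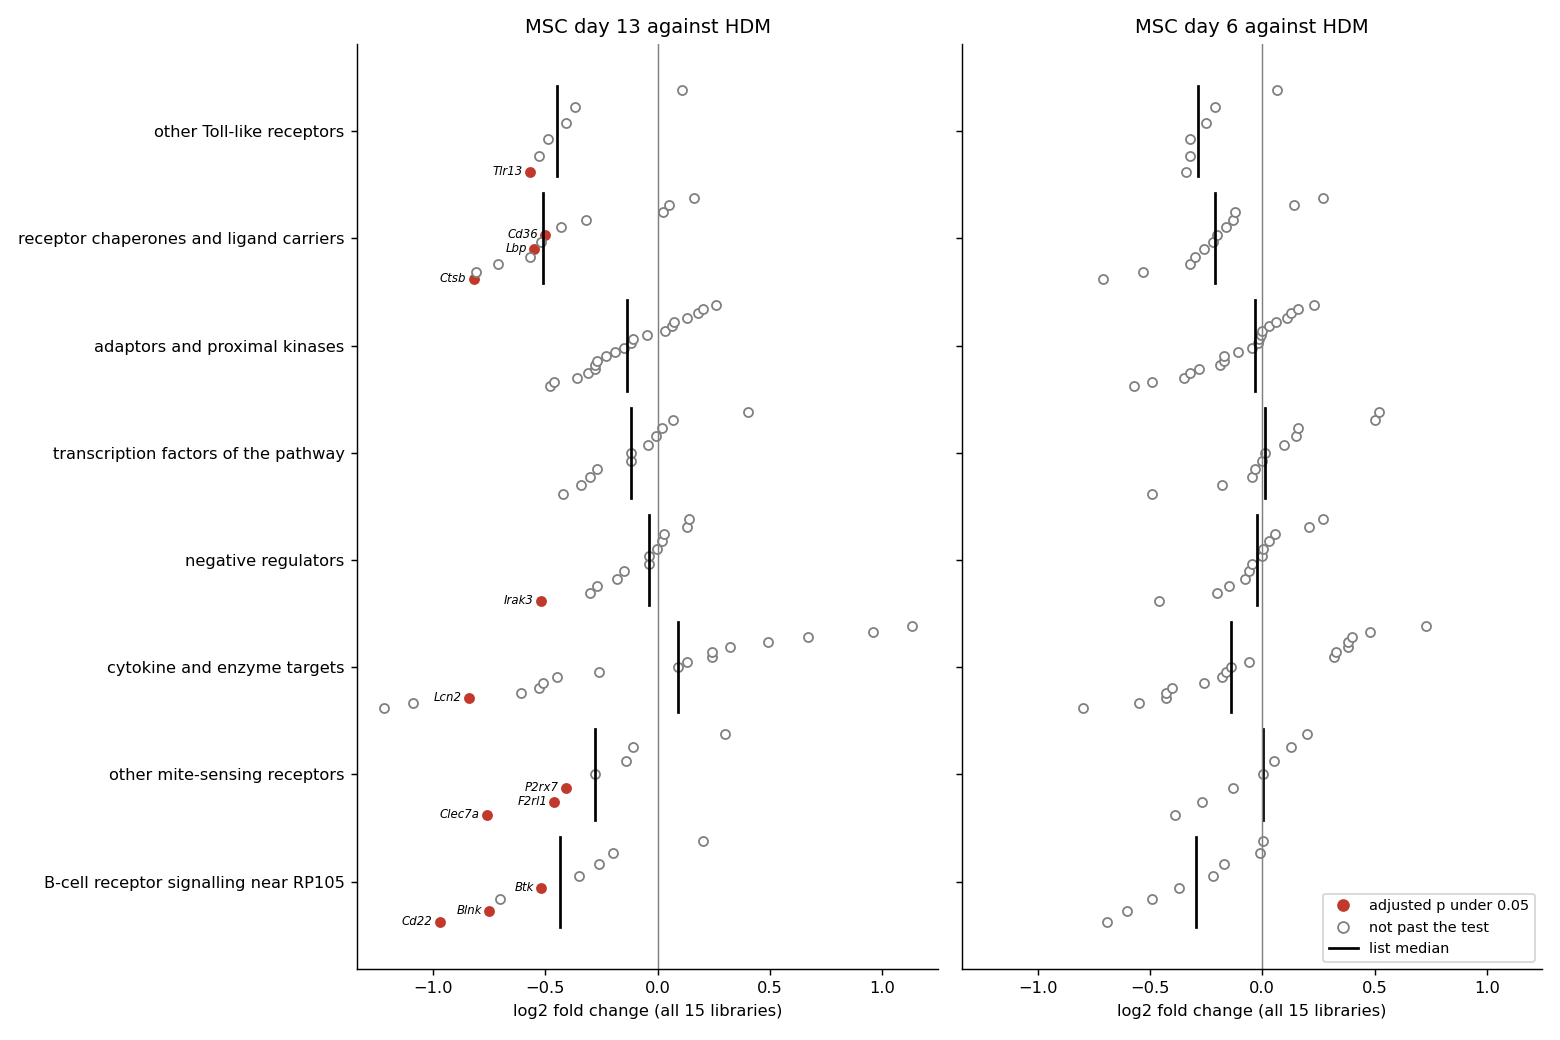
Log2 fold change of each tested gene of 8 pathway lists, in MSC day 13 against HDM and MSC day 6 against HDM, with genes called by edgeR in red and the median of each list as a black bar. The 12 red genes, all below 0, are in the panel of MSC day 13, and the panel of MSC day 6 holds none.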

How the data were processed

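Lung lobes were stored in RNAlater and sequenced as total RNA with a stranded kit, per the labels' protocols. The deposited values are raw counts per Ensembl gene, and the submitters' processing notes name STAR 2.5.3a and GRCm38. Which program the authors counted with, whether it used strand and which annotation it read is not given in the sources used. Overlapping genes, such as Cd180 with Mast4, may therefore share reads. Gene names, positions and exon lengths came from GENCODE annotation of GRCm38.

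Of 55421 genes, edgeR's filterByExpr kept 19562. Libraries were scaled by TMM. A single robust quasi-likelihood fit in edgeR 4.0.16 (R 4.3.3) covered the 15 libraries, and the 3 comparisons were its contrasts. p-values are two-sided, adjusted by Benjamini-Hochberg over all genes tested, and genes under 0.05 are called. Intervals are 95% intervals of the fit. Alternatives were DESeq2 1.42.0, limma 3.58.1 voom with quality weights, other size factors and filters, fits of only the groups compared, and libraries left out. Tables and figures were made in Python 3.11.15 with matplotlib 3.10.9. The scripts were tested on simulated data.

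All 10 members are named. Of each pathway list, up to 3 called genes with the smallest p, or otherwise the 1 with the smallest p, are named, and for likeness the 4 closest genes. Other genes named where leaving out a library changed their calls, and markers of other cell types, were chosen after their values were seen. The members, lists and pairs for ratios were chosen with earlier results of these data known. Pou2f2 is shown by library because it was closest to Cd180. Replicate numbers follow the order of the samples and pair nothing. The labels give separate mice per group and no batch. The members had 85 or more counts per library, and for the least counted, Tlr5 and Ly96, counting error is part of the spread between mice.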

Additional observations from a re-analysis of the deposited data

How the results depend on the processing

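The 5 calls in MSC day 13 lungs were kept with DESeq2, limma voom (which also called Tlr2), other size factors and a filter at 1 CPM, but became 3 with no filter, 2 without HDM replicates 1 and 2, and 0 in a fit of only the 10 libraries compared, and 3 to 5 with 1 library left out. The 1 call in MSC day 6 lungs became 3 with DESeq2, 3 with voom, 2 with the 1 CPM filter, 2 in a fit of only the libraries compared, 0 with no filter, 0 with upper-quartile factors, 0 without HDM replicates 1 and 2, and 0 to 4 with 1 library left out. Without HDM replicates 1 and 2 and MSC day 13 replicate 3 together, chosen after seeing the data, MSC day 6 had 3 calls. Between the MSC groups no setting called a member.

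Over all genes, the 937 calls in MSC day 13 became 2136 with DESeq2, 2413 with voom, 208 with no filter, 0 in the fit of 10 libraries, 183 without HDM replicates 1 and 2, 2279 with MSC day 13 replicate 3 also left out, and 160 (without MSC day 13 replicate 5) to 1294 (without replicate 3) with 1 library left out. With upper-quartile factors 481 were higher and 298 lower, beside 371 higher and 566 lower. The 19 calls in MSC day 6 became 663, 494, 2, 36, 2 and 492 under the same settings in the same order, 0 with upper-quartile factors, and 0 to 433 with 1 library left out. The 0 calls between the MSC groups became 2 with DESeq2 and 1 with voom. Signs turned only for values not past the test, namely Ly96 in MSC day 6 (0.052 without HDM replicates 1 and 2, and 0.046 without these and MSC day 13 replicate 3), Cd14 in MSC day 6 (0.0085 with upper-quartile factors, and -0.17 to 0.21 with 1 library left out), Tlr2 in MSC day 6 (-0.12 to 0.014) and Tlr9 between the MSC groups (0.016 without the 3 libraries, 0.059 with voom, and -0.16 to 0.031 with 1 library left out). The cause was not tested. No paired analysis was possible because the labels give no replicate numbers that groups share.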

Other observations

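Several pathway genes that did not pass the test in MSC day 6 lungs were highest in HDM replicates 1 and 2, the libraries that also stood apart in Ly96. Tab2 had 127, 124, 189, 122 and 125 CPM in MSC day 13 libraries, 127, 130, 128, 129.7 and 123 CPM in MSC day 6 libraries, and 232, 249, 159.7, 155 and 149 CPM in HDM libraries. MSC day 13 replicate 3 lay within the HDM range of Tab2, and the other MSC libraries below it. Itgam, which encodes the integrin CD11b of myeloid cells, had 12.5 to 26.4 CPM in MSC day 13 libraries, 18.1 to 23.8 CPM in MSC day 6 libraries, and 49.9, 45.9, 15.0, 20.8 and 33.9 CPM in HDM libraries. Rel was likewise highest in HDM replicates 1 and 2, at 75.7 and 75.2 CPM, against 44.3 to 50.4 CPM in MSC day 13, 39.0 to 46.6 CPM in MSC day 6 and 45.9 to 64.2 CPM in the other HDM libraries.

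Between the MSC groups, Clec4n, which encodes the mite- and fungus-sensing lectin Dectin-2, had 39.8, 38.6, 25.5, 42.0 and 31.2 CPM in MSC day 13 libraries and 54.1, 39.2, 54.2, 45.6 and 54.2 CPM in MSC day 6 libraries, with overlap and a log2 difference of -0.48 (adjusted p = 0.623). Il23a, a subunit of interleukin-23, was near its lower limit of measurement, at 0.119 to 1.26 CPM in MSC day 13 libraries, with replicate 3 highest, and 0.0556 to 0.342 CPM in MSC day 6 libraries.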
